A study of Mus musculus with 8 samples.

Results

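The small RNAs that AGO2 held in resting mouse B cells were compared with the small RNAs of the whole cells, and the members described here are the miRNA features that had at least 1 count in the 4 libraries of resting cells. These were 465 of the 2202 features of the table, and 219 of them had enough counts to be tested for a difference between AGO2 immunoprecipitate (IP) and input. The cells came from spleens of mice with the genotype Ago2HA/HA, in which both copies of the Ago2 gene carry an HA epitope tag, and were isolated untouched by removing cells that bear CD43. The resting cells were used as isolated. An antibody against HA precipitated AGO2 from them, and 2 IP and 2 input libraries were made with a miRNA library kit. Proliferating B cells of the same genotype, activated in culture, gave another 4 libraries and enter here only where the cell states are compared. Cells of animals without the epitope were carried through the same IP, gave no RNA and have no library, per the labels, so the input is the only reference for the IP. No label tells whether replicate libraries stem from different animals. The p-values therefore reflect the spread among these libraries alone, and that spread may be technical.

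An miRNA is cut from a hairpin precursor, and 1 strand of the cut duplex is loaded into an Argonaute protein such as AGO2. The loaded strand pairs with target transcripts mainly through its seed, bases 2 to 8 from its 5′ end, and the other strand is usually discarded. Features that share a seed therefore form a family, while features cut from 1 long transcript form a polycistron, and both groupings are used below. The input holds free, unloaded and otherwise bound small RNAs together with those in any Argonaute protein.

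The mature sequences of the families on which the comparison turns are printed first, 5′ to 3′, with the seed in capitals. They are RefSeq entries of GRCm38.p6, in which 201 of the 219 tested features had a mature sequence. The first 5 are the miR-200 family, which falls into one group with the seed AAUACUG and another with AACACUG. The next 4 share the seed AUUGCAC. They are followed by miR-26, by examples of let-7 and miR-29, by miR-27a and miR-27b, which share a seed, and by miR-17 and miR-20a, which share a seed and a transcript.
miR-200b-3p: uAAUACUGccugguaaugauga
miR-429-3p: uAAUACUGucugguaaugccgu
miR-200c-3p: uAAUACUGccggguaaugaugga
miR-200a-3p: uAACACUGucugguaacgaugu
miR-141-3p: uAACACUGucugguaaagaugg
miR-92a-3p: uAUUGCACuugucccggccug
miR-25-3p: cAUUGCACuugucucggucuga
miR-32-5p: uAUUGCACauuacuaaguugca
miR-363-3p: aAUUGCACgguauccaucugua
miR-26b-5p: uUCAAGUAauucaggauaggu
miR-26a-5p: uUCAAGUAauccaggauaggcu
let-7b-5p: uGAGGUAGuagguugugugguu
let-7g-5p: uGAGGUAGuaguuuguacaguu
miR-29a-3p: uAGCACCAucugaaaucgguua
miR-29c-3p: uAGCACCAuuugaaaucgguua
miR-27a-3p: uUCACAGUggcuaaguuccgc
miR-27b-3p: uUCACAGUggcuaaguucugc
miR-17-5p: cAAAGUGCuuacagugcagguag
miR-20a-5p: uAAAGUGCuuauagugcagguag

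Library totals were 358764 and 386598 counts in the inputs and 1681148 and 788869 in the IPs, on 295 to 381 features per library. The floor of 3 counts lay between 1.78 and 8.36 CPM (counts relative to the library's total), and this limit covers counting error only. The 10 most abundant features took 74.5% to 77.9% of a library. Across features, log2 CPM of the inputs correlated with each other at r = 0.956, those of the IPs at r = 0.962, and an input with an IP at r from 0.894 to 0.908, where features are not independent replicates. Differences between libraries of a group exceeded sampling noise, with a chi-square per degree of freedom of 28.7 for the inputs and 189 for the IPs. CPM below are scaled with TMM factors, replicate 1 is always given before replicate 2, and a log2 fold change is IP over input from edgeR's quasi-likelihood fit. A feature is called higher or lower at a Benjamini-Hochberg adjusted p under 0.05 over all 219 features.

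AGO2 held a different mix of miRNAs from that of the whole resting cell. Of 219 features, 29 were higher and 34 lower in the IP and 156 were not called, so that 28.8% of the tested features were called, 13.2% higher and 15.5% lower. Upper-quartile factors in place of TMM gave 33 higher and 23 lower features, and library totals gave 25 and 41. These scalings moved the median of all features by 0.15 and -0.24 on the log2 scale. The 29 higher features made up 29.8% and 30.3% of the input counts and 58.5% and 56.0% of the IP counts. The 34 lower features went from 49.7% and 48.8% of the inputs to 19.8% and 22.9% of the IPs. Both sets were chosen from these same libraries. The direction of their shifts was therefore set by the choice, and only the size of the shares is described. The libraries of input and IP did not overlap for 149 features, 68% of those tested.

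**Figure D1:**
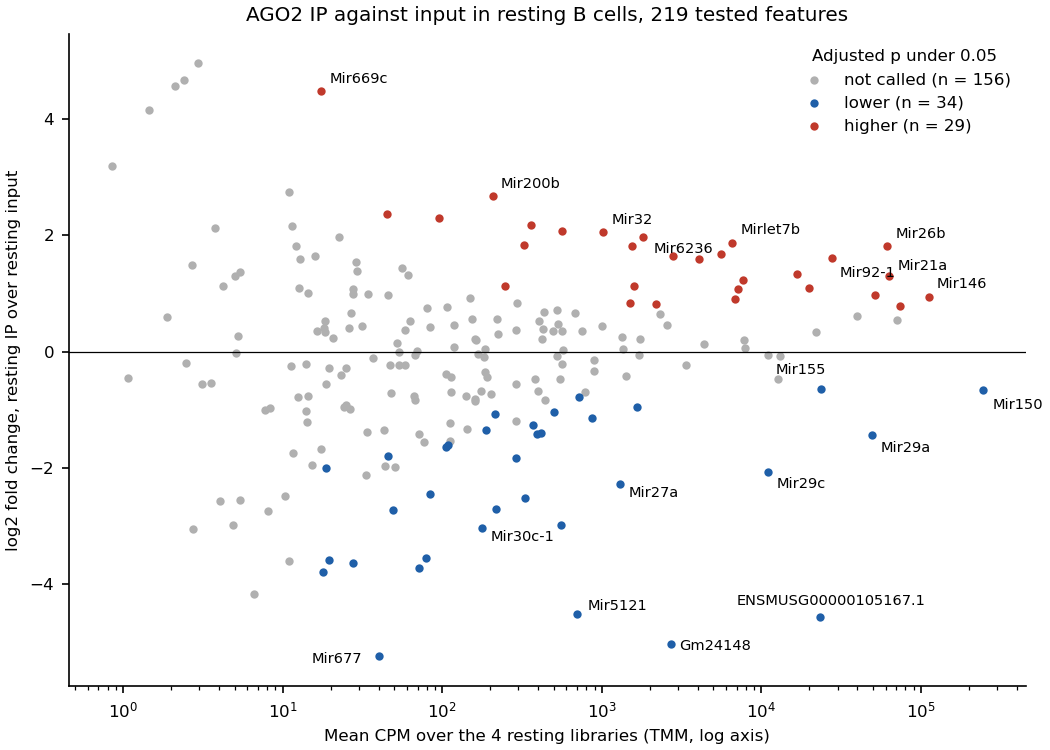
Log2 fold change of resting IP over resting input (vertical axis) against the mean CPM of the 4 resting libraries (horizontal log axis) for the 219 tested features. Red points are the 29 features called higher, blue points the 34 called lower and grey points the 156 not called, where red points crowd among the abundant features, and the lowest blue points are Mir677, Gm24148, ENSMUSG00000105167.1 and Mir5121.

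Most of the higher features were abundant ones. Of the 46 features with a mean of at least 1000 CPM, 21 were higher and 8 lower, with a median log2 fold change of 0.58. Of the 148 features between 10 and 1000 CPM, 8 were higher and 26 lower, with a median of -0.24, and of the 25 below 10 CPM none was called. The median SE was 0.27 in the first of these classes, 0.58 in the middle class and 1.64 in the last. Smaller differences were thus harder to call at lower abundance, and a difference of ordinary size was not detectable among the rarest features. Over all tested features the median was -0.05, and log2 fold change hardly followed mean log2 CPM (Spearman 0.089, Pearson 0.028).

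The order of the most abundant miRNAs changed between input and IP. Mir150 (chr7:45121757-45121821, plus strand), a lymphocyte miRNA known to restrain the transcription factor Myb, took 30.7% and 30.2% of the input counts and 14.1% and 19.05% of the IP counts. It ranked first in both by mean share, although Mir146 was just above it in IP replicate 1, and it fell in the IP (edgeR log2 fold change -0.66, SE 0.23, adjusted p = 0.026). That call was lost without input replicate 1 (-0.60, adjusted p = 0.12) and without input replicate 2 (-0.71, adjusted p = 0.066), and with upper-quartile factors (-0.50, edgeR adjusted p = 0.23). Mir26b (chr1:74394310-74394394, plus strand), which lies within Ctdsp1 and whose product is known to repress Ezh2, moved the other way, from rank 11 to rank 3. Its shares were 2.63% and 2.95% in the inputs and 8.76% and 7.67% in the IPs, a rise of 3.51-fold (edgeR log2 fold change 1.81, SE 0.23, adjusted p = 8.3e-08).

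Mir29a (chr6:31062660-31062747, minus strand), of a family known to repress extracellular matrix genes, dropped from rank 3 to rank 11, with shares of 7.95% and 6.87% in the inputs against 3.005% and 1.51% in the IPs (edgeR log2 fold change -1.44, SE 0.27, adjusted p = 3.9e-05). Mir146 (chr11:43374397-43374461, minus strand), the gene of miR-146a, a feedback inhibitor of NF-kappaB signalling, stayed second at 7.85% and 7.75% of the inputs and 14.2% and 10.9% of the IPs (edgeR log2 fold change 0.95, SE 0.22, adjusted p = 0.00071). Mir21a (chr11:86584067-86584158, minus strand), an miRNA induced by many growth signals, rose from 3.61% and 3.92% to 7.32% and 8.39% (edgeR log2 fold change 1.30, SE 0.22, adjusted p = 1.2e-05). For Mir26b, Mir29a, Mir146 and Mir21a the IP libraries lay apart from the input libraries. Mir342 (0.54, edgeR adjusted p = 0.066) and Mirlet7i (0.61, edgeR adjusted p = 0.059) were among the 10 most abundant features of input and IP and did not pass the threshold. Both passed without IP replicate 2, Mir342 at 0.51, edgeR adjusted p = 0.041 and Mirlet7i at 0.54, edgeR adjusted p = 0.04. Mir140, within Wwp2, took 3.11% and 2.75% of the inputs and 1.77% and 1.39% of the IPs (edgeR log2 fold change -0.64, SE 0.25, adjusted p = 0.04998), a call that was lost without input replicate 1 (-0.50, adjusted p = 0.31) and without input replicate 2 (-0.76, adjusted p = 0.091).

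**Figure D2:**
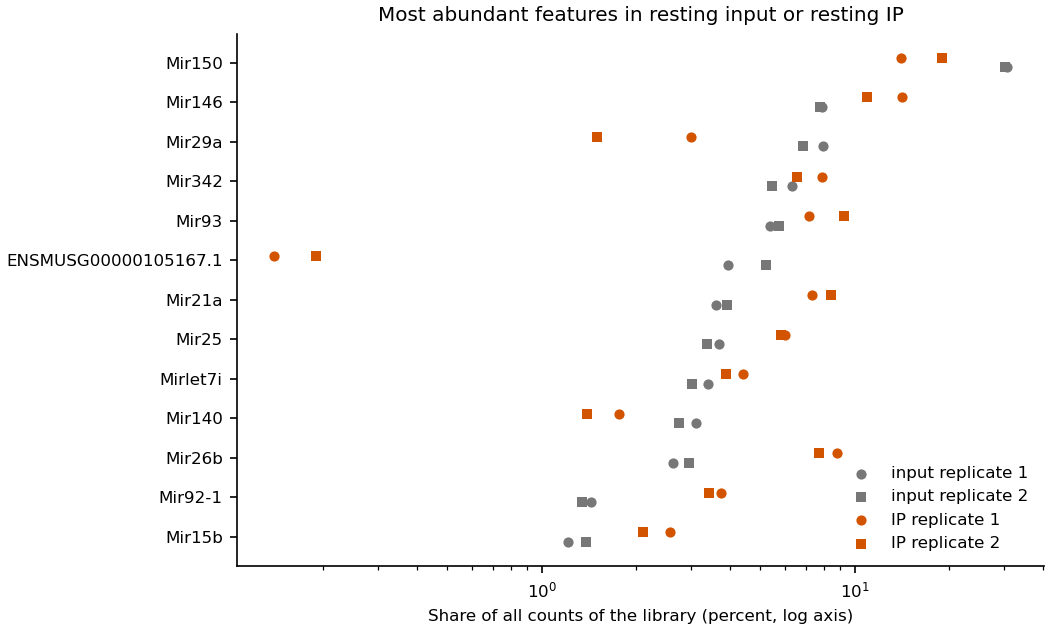
Share of all counts of a library (percent, horizontal log axis) for the features among the 10 most abundant of the resting inputs or the resting IPs. Grey symbols are the 2 inputs and orange symbols the 2 IPs, circles replicate 1 and squares replicate 2: Mir26b sits at 2.63% and 2.95% in the inputs and 8.76% and 7.67% in the IPs, Mir29a and ENSMUSG00000105167.1 go the other way.

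The let-7 family is known for repressing growth and cell cycle genes in differentiated cells. Of its 10 tested features 4 were higher, none was lower and 6 were not called, and their median log2 fold change was 0.76. Over all 219 tested features 13.2% were higher and 15.5% lower, with a median of -0.05. Mirlet7b (chr15:85707319-85707403, plus strand) stood at 2936 and 2694 CPM in the inputs and 13026 and 7658 CPM in the IPs. The IP libraries were both above the inputs, and IP replicate 1 was the higher of them (edgeR log2 fold change 1.88, SE 0.29, adjusted p = 1.8e-06). Mirlet7f-2 (chrX:151912346-151912428, plus strand), within Huwe1, went from 2763 and 2532 CPM to 9149 and 7915 CPM (edgeR log2 fold change 1.69, SE 0.28, adjusted p = 6e-06). Its mature sequence is identical to that of Mirlet7f-1, which had no count, so the counts of the copies cannot be assigned with certainty. Mirlet7d (1.07) and Mirlet7g (0.91) rose less. Their calls were not stable to the loss of a library: Mirlet7d missed the threshold without input replicate 2 (0.89, adjusted p = 0.073), and Mirlet7g without IP replicate 1 (0.63, adjusted p = 0.075), without input replicate 1 (0.90, adjusted p = 0.079) and without input replicate 2 (0.91, adjusted p = 0.073). Without input replicate 2 the family therefore had 2 higher features. The most abundant feature, Mirlet7i, stood at 34287 and 28704 CPM in the inputs and 55102 and 41016 CPM in the IPs (edgeR log2 fold change 0.61, SE 0.25, adjusted p = 0.059). Mirlet7e and Mirlet7f-1 had no resting count. Both overlap another feature on the opposite strand, and only 6 of the 67 features with such an overlap had a resting count. Their zeros therefore do not show absence. The summed share of the counted let-7 features was 5.004% and 4.54% of the inputs and 7.89% and 6.91% of the IPs.

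The miRNAs known to be high in resting lymphocytes (the families of miR-26, miR-29 and miR-30, and miR-150) split. Of 11 tested features 3 were higher, 5 lower and 3 not called, the median was -0.66, and the list went from 45.2% and 43.5% of the input counts to 28.0% and 29.8% of the IP counts. Among all tested features 13.2% were higher and 15.5% lower. Both tested miR-26 genes rose. Mir26a-2 (chr10:126995530-126995613, plus strand), within Ctdsp2, went from 174 and 110.5 CPM to 590.3 and 427 CPM (edgeR log2 fold change 1.84, SE 0.42, adjusted p = 0.00063), though its mature sequence is identical to that of Mir26a-1. Of the miR-29 genes, Mir29a fell as given above, and Mir29c (chr1:195037547-195037634, plus strand) fell from 19570.2 and 15909 CPM to 5545 and 2927 CPM, with the input libraries well above the IPs (edgeR log2 fold change -2.07, SE 0.29, adjusted p = 3.9e-07). Mir29b-1 (-0.28 ± 0.83, SE) and Mir29b-2 (-1.38 ± 0.91, SE) were not called and share a mature sequence with each other.

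The miR-30 features went in opposite directions. Mir30b (chr15:68337415-68337510, minus strand) rose from 2122 and 1932 CPM to 7757 and 4529 CPM (edgeR log2 fold change 1.60, SE 0.29, adjusted p = 3e-05). Mir30d, its neighbour on the same strand, stood at 15761 and 13746 CPM in the inputs and 13318 and 8083 CPM in the IPs and was not called (edgeR log2 fold change -0.46, SE 0.26, adjusted p = 0.18). It was called lower without IP replicate 1 (-0.94, adjusted p = 0.0032) and with library totals (-0.72, edgeR adjusted p = 0.02). Mir30c-1 (chr4:120769534-120769622, minus strand), within Nfyc, fell from 263 and 368 CPM to 38.1 and 38.8 CPM (edgeR log2 fold change -3.03, SE 0.50, adjusted p = 6e-06), with the caveat that Mir30c-2 gives an identical mature sequence. Mir30a fell less, from 784 and 565 CPM to 358 and 297 CPM (edgeR log2 fold change -1.04, SE 0.37, adjusted p = 0.027), a call that was lost without input replicate 1 (-0.78, adjusted p = 0.27). Without that library the list had 3 lower members, Mir29a, Mir29c and Mir30c-1, since Mir150 was lost there as well.

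The miR-17 cluster and its paralogs, which support lymphocyte growth and survival and are known to repress Bcl2l11, had 6 features higher, 1 lower and 8 not called of 15, with a median of 0.79. All tested features had 13.2% higher and 15.5% lower. Their summed share was 11.13% and 11.05% of the inputs and 17.6% and 19.4% of the IPs. Mir93 (chr5:138165523-138165610, minus strand), within Mcm7, was the most abundant at 53717 and 54325 CPM in the inputs and 89649 and 97592 CPM in the IPs (edgeR log2 fold change 0.79, SE 0.21, adjusted p = 0.0027). Mir25, from the same span of Mcm7, rose from 37061 and 32039 CPM to 75045 and 61241 CPM (edgeR log2 fold change 0.98, SE 0.23, adjusted p = 0.0007). Mir92-1 (chr14:115044427-115044506, plus strand) rose from 14468 and 12803 CPM to 46811 and 36184 CPM (edgeR log2 fold change 1.61, SE 0.23, adjusted p = 7.9e-07), and Mir92-2 (chrX:52741838-52741928, minus strand), which has the same mature sequence, from 731 and 648 CPM to 2560.4 and 2275 CPM (edgeR log2 fold change 1.81, SE 0.29, adjusted p = 4.4e-06). In each of these 4 features both IPs lay above both inputs.

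Mir17 itself was lower in the IP. It stood at 938 and 882 CPM in the inputs and 476 and 590.2 CPM in the IPs, which do not overlap (edgeR log2 fold change -0.77, SE 0.29, adjusted p = 0.042), while Mir20a, with the same seed and transcript, stood at 1663 and 1505 CPM and 2254 and 3318 CPM (edgeR log2 fold change 0.81, SE 0.27, adjusted p = 0.02). Both calls were lost under several alternatives. Mir17 missed the threshold without IP replicate 1 (-0.69, adjusted p = 0.11), without input replicate 1 (-0.73, adjusted p = 0.198) and without input replicate 2 (-0.82, adjusted p = 0.13), with upper-quartile factors (-0.61, edgeR adjusted p = 0.102) and under DESeq2 (-0.69, DESeq2 adjusted p = 0.07). Mir20a missed it without IP replicate 2 (0.25, adjusted p = 0.53), without input replicate 1 (0.89, adjusted p = 0.089) and without input replicate 2 (0.74, adjusted p = 0.17). Mir19a, at 0.84 ± 0.28 (SE), missed it without IP replicate 1 (0.63, adjusted p = 0.12), without input replicate 1 (0.98, adjusted p = 0.079) and without input replicate 2 (0.72, adjusted p = 0.21).

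Of the miR-200 family, known as keepers of the epithelial state through repression of Zeb1 and Zeb2, the 3 features with the seed AAUACUG rose and the 2 with the seed AACACUG were not called. Mir200b (chr4:156055681-156055750, minus strand) had 16 and 27 counts in the inputs and 498 and 258 in the IPs, or 44.8 and 66.3 CPM against 372 and 345 CPM, a rise of 6.41-fold (edgeR log2 fold change 2.68, SE 0.51, adjusted p = 4.3e-05). Mir429 (chr4:156053905-156053987, minus strand) had 7 and 18 counts in the inputs and 256 and 94 in the IPs (edgeR log2 fold change 2.30, SE 0.67, adjusted p = 0.0075), and Mir200c (chr6:124718322-124718390, minus strand) had 74 and 91 and 1316 and 624 (edgeR log2 fold change 2.08, SE 0.37, adjusted p = 2.2e-05). All IP libraries of these features lay above the inputs in CPM. The Mir429 call was lost without IP replicate 1 (1.89, adjusted p = 0.093) and without input replicate 1 (1.84, adjusted p = 0.11).

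Mir200a (chr4:156054896-156054985, minus strand), which lies between Mir200b and Mir429, had 77 and 78 counts in the inputs and 66 and 85 in the far deeper IPs, or 216 and 192 CPM against 49.3 and 114 CPM (edgeR log2 fold change -1.33, SE 0.58, adjusted p = 0.082). It was lower without IP replicate 2 (-2.31, adjusted p = 0.011). Mir141 (chr6:124717914-124717985, minus strand), the neighbour of Mir200c, stood at 806 and 508 CPM in the inputs and 1025 and 659.8 CPM in the IPs, which overlap (edgeR log2 fold change 0.36, SE 0.35, adjusted p = 0.47). With Mir203 (-0.69 ± 0.36, SE), known from skin, which was called lower only without IP replicate 2 (-1.33, adjusted p = 0.0097), the epithelial marker list had 3 of 6 tested features higher and none lower, with a median of 1.22 and 0.204% to 0.268% of each library. Mir205 was not tested. The shares over all tested features were 13.2% higher and 15.5% lower. In bulk samples fewer cells of a type and less RNA per cell cannot be told apart.

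Pairs that share a seed, on either arm of the hairpin, had a smaller median difference than all pairs, but the median of those that also share a polycistron was close to that of all pairs. Among the 138 features with a mean of at least 50 CPM, the median absolute difference in log2 fold change was 0.74 over the 81 pairs that share a seed and 1.20 over all 9453 pairs. Over the 33 pairs of the same polycistron without a shared seed on record it was 0.97. Over the 11 pairs that share polycistron and seed it was 1.12. Among the 11 are Mir200b and Mir200a, which differ in the seed printed above and share the seed AUCUUAC of the other arm. Seeds were taken from the RefSeq mature entries, which Mir30b and Mir30d lack. These neighbours of 1 family therefore counted as a pair without a shared seed, and other missing arms act likewise. Some pairs that share a seed have identical mature sequences, such as Mir92-1 with Mir92-2 and Mir16-1 with Mir16-2. Counts of such copies cannot be assigned with certainty, so their values may be alike for that reason, which was not tested. The medians describe the fitted values, and pairs share features, so no test was made. The seed AUUGCAC had 4 higher features of 6, as many as let-7, beside 13.2% higher over all tested features. Mir32 (2.06), Mir92-2 (1.81), Mir92-1 (1.61) and Mir25 (0.98) were higher, while Mir92b (0.75) and Mir363 (-0.84) were not called. Mir32 (chr4:56895229-56895298, minus strand), within Tmem245 and in none of the clusters that hold the others, had 152 and 148 counts in the inputs and 2332 and 1152 in the IPs (edgeR log2 fold change 2.06, SE 0.37, adjusted p = 1.9e-05).

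The seed ACCCUGU of miR-10, whose genes lie in the Hox clusters, had both features higher. Mir10a (chr11:96317165-96317274, plus strand) rose from 1369 and 1326 CPM to 4478 and 3931 CPM (edgeR log2 fold change 1.64, SE 0.30, adjusted p = 3e-05). Mir10b had 6 and 5 counts in the inputs and 120 and 46 in the IPs (edgeR log2 fold change 2.38, SE 0.82, adjusted p = 0.025), and its call was lost on leaving out any single library: without IP replicate 1 (2.003, adjusted p = 0.18), without IP replicate 2 (2.35, adjusted p = 0.053), without input replicate 1 (2.61, adjusted p = 0.091) and without input replicate 2 (2.16, adjusted p = 0.17). The seed GAUAUGU of miR-190 had Mir190b higher, from 157 and 103 CPM to 590.3 and 579.5 CPM (edgeR log2 fold change 2.17, SE 0.40, adjusted p = 3e-05), and Mir190a not called (1.39 ± 0.84, SE) on 7 and 5 input counts.

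Other seeds held features with different calls. For the seed UCACAGU, 1 feature was lower and the other was not called. Mir27a (chr8:84208672-84208758, plus strand) fell from 2555 and 1775 CPM in the inputs to 393 and 498 CPM in the IPs (edgeR log2 fold change -2.28, SE 0.32, adjusted p = 4.2e-07), while Mir27b (chr13:63300712-63300784, plus strand), within Aopep, stood at 6992 and 7551 CPM and 9604 and 7094 CPM (edgeR log2 fold change 0.20, SE 0.26, adjusted p = 0.59). Both are known as regulators of lipid metabolism genes. For the seed AGCAGCA of miR-15 and miR-16, known to restrain Bcl2 and cyclins, Mir15b rose from 12192 and 13164 CPM to 32178 and 22317 CPM (edgeR log2 fold change 1.10, SE 0.25, adjusted p = 0.00046), Mir322 fell (edgeR log2 fold change -0.95, SE 0.32, adjusted p = 0.02), and Mir16-1, Mir16-2, Mir15a and Mir195a were not called. The Mir322 call was lost without input replicate 2 (-0.74, adjusted p = 0.23). The median of that list was -0.15, and 0.0045 with upper-quartile factors.

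**Figure D3:**
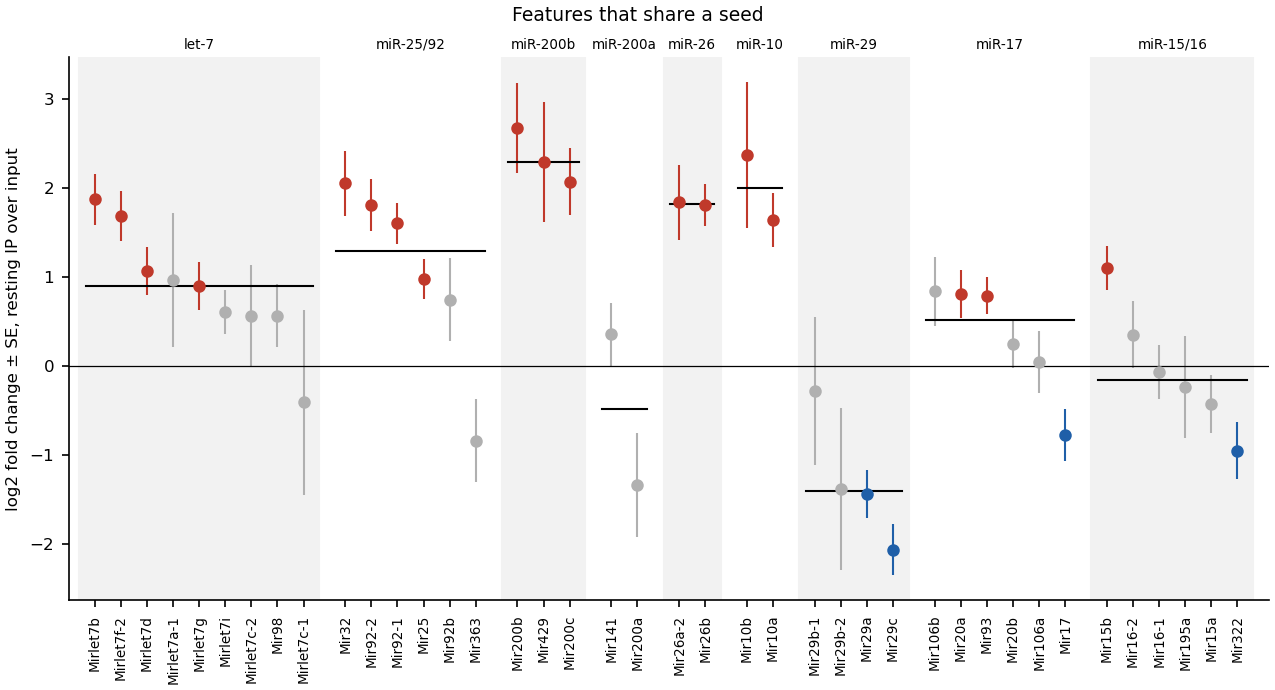
Log2 fold change of resting IP over resting input with its SE (vertical axis) for features grouped by a shared seed. Red points were called higher, blue points lower and grey points not called, and the horizontal bar is the median of each group: all 3 features of the miR-200b seed lie above 2, and the miR-29 features lie below 0.

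Neighbouring features on 1 strand often differed in the IP, though their median difference, given above, was not larger than that of all pairs. With features of 1 strand joined where the gap was at most 10000 nt, 28 polycistrons held 72 tested features. In 8 of them the log2 fold changes spanned more than 2, in 10 less than 1, and 8 had no called feature. The widest span, on chromosome 14, runs to Mir19b-1, which had 4 input and 1 IP counts. Another of the 8 joins Mir1949 with ENSMUSG00000104863.1, which lies over Snora74a. No polycistron had all of its tested features higher or all lower, and 1 held calls in opposite directions, the Mir17 to Mir92-1 cluster on chromosome 14, through Mir17. Since only 28.8% of all tested features were called, groups with every member called would be rare in any case. A count ratio of neighbouring features within a library needs no scaling between libraries. The feature with the higher fitted log2 fold change was always the numerator. A rise of the ratio in the IP was therefore set by that choice, and the ratios describe the fitted differences without adding separate support. The ratio of Mir200b to Mir200a was 0.208 and 0.346 in the inputs and 7.55 and 3.04 in the IPs. Mir200a was thus the more frequent of the pair in each input and Mir200b in each IP. The ratio of Mir200c to Mir141 was 0.257 and 0.440 in the inputs and 0.958 and 1.27 in the IPs. With 2 libraries against 2 an exact permutation test cannot give a two-sided p below 0.333, which is the value for each ratio whose groups do not overlap.

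In the Mir17 to Mir92-1 cluster, the ratio of Mir92-1 to Mir17 was 15.4 and 14.5 in the inputs and 98.3 and 61.3 in the IPs. Its paralog on the X chromosome showed a ratio of Mir92-2 to Mir363 of 10.9 and 6.14 in the inputs and 51.2 and 48.6 in the IPs. The ratio of Mir23a to Mir27a was 0.465 and 0.826 in the inputs and 4.07 and 2.31 in the IPs, and that of Mir30b to Mir30d was 0.135 and 0.141 in the inputs and 0.582 and 0.560 in the IPs. Each of these ratios was higher in both IPs than in both inputs. Smaller shifts of the same kind were seen for Mir99b over Mir125a (0.168 and 0.128 in the inputs and 0.615 and 0.400 in the IPs) and for Mir221 over Mir222, known repressors of Cdkn1b (2.41 and 2.78 in the inputs and 7.33 and 7.02 in the IPs).

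For some neighbours the ratios overlapped. The ratio of Mir27b to Mir23b was 16.7 and 11.5 in the inputs and 16.8 and 15.7 in the IPs, and that of Mir25 to Mir93 was 0.690 and 0.590 in the inputs and 0.837 and 0.628 in the IPs, so that inputs and IPs overlapped in both. In the Mcm7 cluster Mir25 (0.98), Mir106b (0.84) and Mir93 (0.79) lay within 0.19 of each other on the log2 scale, although Mir106b on fewer counts was not called. Mir16-1 (-0.06) and Mir15a (-0.43) of Dleu2 were both not called, but their ratio was 1.13 and 1.03 in the inputs and 1.29 and 1.503 in the IPs, where both IPs lay above both inputs by a small margin. The 72 features were grouped by distance alone, and whether each group is cut from 1 transcript in these cells was not tested.

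**Figure D4:**
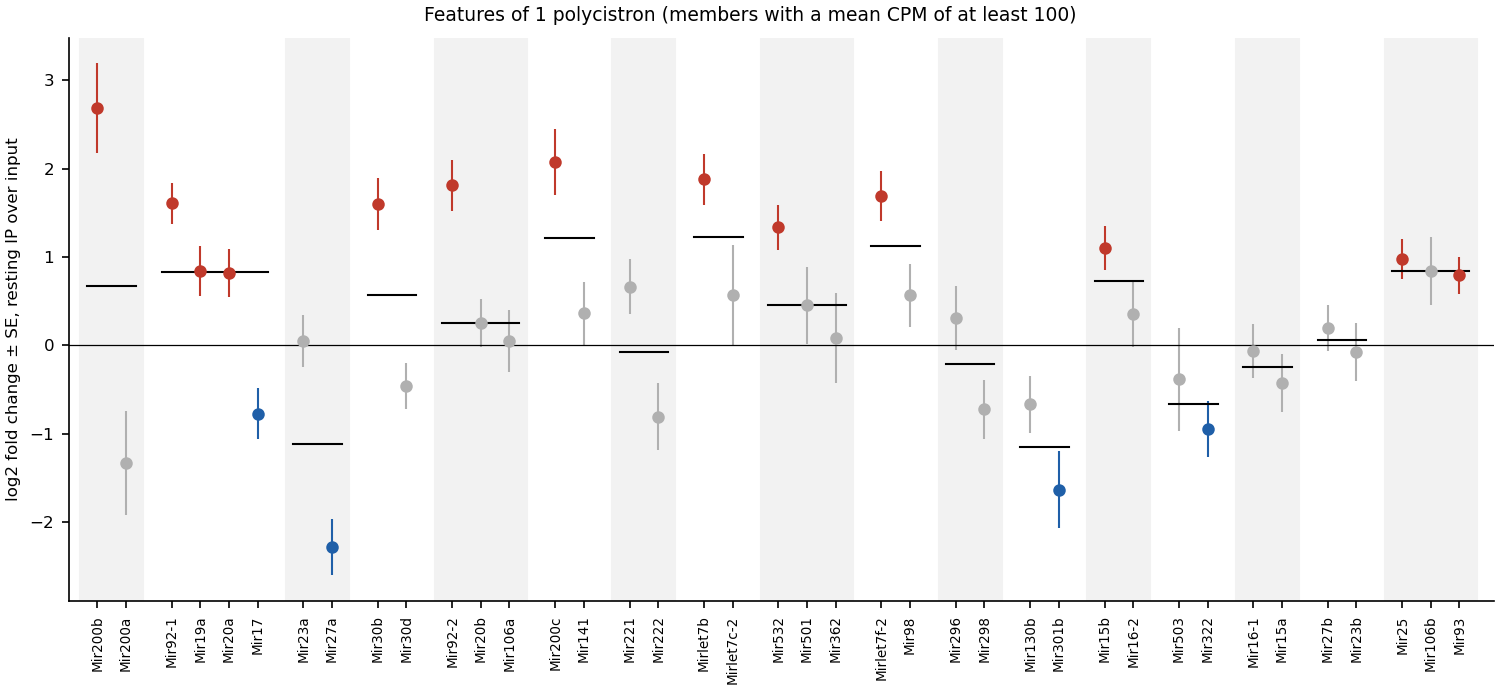
Log2 fold change of resting IP over resting input with its SE (vertical axis) for the 17 polycistrons with at least 2 members at a mean of 100 CPM or more, ordered by their span. Red points were called higher, blue points lower and grey points not called, and the horizontal bar is the median: Mir200b and Mir200a lie farthest apart, and Mir25, Mir106b and Mir93 lie closest.

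**Figure D5:**
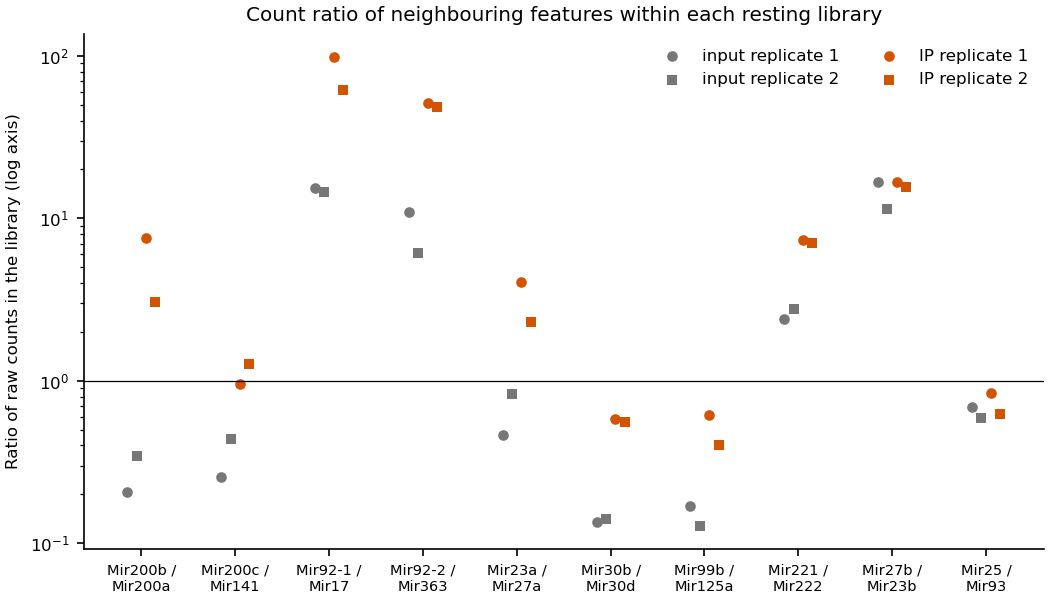
Ratio of raw counts of neighbouring features (vertical log axis) within each resting library, for 10 pairs. Grey symbols are the inputs and orange symbols the IPs, circles replicate 1 and squares replicate 2: for the first 8 pairs both IPs lie above both inputs, and for Mir27b over Mir23b and Mir25 over Mir93 they overlap. In each pair the numerator is the feature with the higher fitted log2 fold change.

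The miRNAs known to rise on lymphocyte activation had 2 features higher, 1 lower and 8 not called of 11, with a median of -0.43, and went from 12.8% and 12.9% of the inputs to 22.5% and 20.5% of the IPs through Mir146 and Mir21a. These counts lie near the shares over all tested features, 13.2% higher and 15.5% lower. Mir155 (chr16:84714140-84714204, plus strand), which the B cell germinal centre response needs, was not called. It stood at 12147 and 10217 CPM in the inputs and 10483 and 10983 CPM in the IPs, which overlap (edgeR log2 fold change -0.06, SE 0.22, adjusted p = 0.87). Mir132, a CREB target, was lower, with 12 and 10 input counts and 2 and 11 IP counts (edgeR log2 fold change -2.01, SE 0.70, adjusted p = 0.026). Its call was lost without IP replicate 1 (-1.04, adjusted p = 0.32) and without input replicate 1 (-1.77, adjusted p = 0.11). Its neighbour Mir212 had 7 input and 2 IP counts, a ratio of input over IP of 9.56 (exact 95% interval for counting error 1.82 to 94.3), and was called without input replicate 1 (-3.70, adjusted p = 0.046). Mir182 (-0.43), Mir183 (-0.76), Mir221 (0.66) and Mir222 (-0.81) were not called.

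Other families with few members are given by their calls, beside 13.2% higher and 15.5% lower over all 219 tested features. Of the miR-130 and miR-301 genes Mir301 (-1.14) and Mir301b (-1.63) were lower and Mir130b (-0.67) was not called, with a median of -1.14. Mir301 stood at 1117 and 1277 CPM in the inputs and 478 and 609 CPM in the IPs, and its call was lost without input replicate 2 (-1.04, adjusted p = 0.057), while Mir130b passed without IP replicate 2 (-1.29, adjusted p = 0.0023). Of 5 miR-181 features, known from lymphocyte development, 1 was lower: Mir181b-1 had 11 and 17 input counts and 4 and 2 IP counts (edgeR log2 fold change -3.59, SE 1.05, adjusted p = 0.0075), and missed the threshold without input replicate 2 (-3.35, adjusted p = 0.0505). Mir181a-1, on the same transcript, stood at 101 and 106 CPM and 170.1 and 225 CPM (edgeR log2 fold change 0.93, SE 0.47, adjusted p = 0.14). Copies of miR-181a and of miR-181b have identical mature sequences, so these single genes are uncertain.

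Of the miR-99, miR-100, miR-125 and miR-10 genes 2 of 5 were higher, the miR-10 genes above, and 1 was lower. All tested features gave 13.2% higher and 15.5% lower. Mir125a (chr17:17830812-17830879, plus strand), a haematopoietic miRNA within Spaca6, fell from 549 and 363 CPM to 169 and 87.00 CPM (edgeR log2 fold change -1.82, SE 0.45, adjusted p = 0.0013). Mir99a had 20 and 2 input and 164 and 30 IP counts (1.45 ± 0.86, SE), was not called, and was called higher without input replicate 1 (4.01, adjusted p = 0.022). Mir28a (chr16:24827855-24827940, plus strand), within Lpp and known to restrain germinal centre B cells, rose from 4548 and 4550.0 CPM to 11864 and 9607 CPM (edgeR log2 fold change 1.24, SE 0.27, adjusted p = 0.00029), and Mir151 fell from 246 and 295 CPM to 122 and 89.7 CPM (edgeR log2 fold change -1.34, SE 0.45, adjusted p = 0.021), a call lost without input replicate 2 (-1.21, adjusted p = 0.102). Mir148b rose (edgeR log2 fold change 1.12, SE 0.31, adjusted p = 0.0045) except without IP replicate 1 (0.59, adjusted p = 0.18), while Mir148a (0.23) and Mir152 (0.43) were not called. None of the 3 tested mirtrons, miRNAs freed from introns by splicing, was called, with Mir1981 at 0.52 and Mir877 at -0.92. With 28.8% of all tested features called, no call among 3 says little.

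The remaining rises were Mir532, Mir185, Mir669c and Mir6236. Mir532 (chrX:7248402-7248497, minus strand), within Clcn5, went from 9816 and 9041 CPM to 27093 and 20480.5 CPM (edgeR log2 fold change 1.34, SE 0.25, adjusted p = 3.9e-05), the largest change in its group of 4 neighbours. Mir669c, of the Sfmbt2 cluster, had 1 count in the inputs and 67 in the IPs, a ratio of 24.5 (exact 95% interval for counting error 4.26 to 984), and its call was lost without IP replicate 2 (4.001, adjusted p = 0.055) and without input replicate 2 (3.50, adjusted p = 0.15). Mir185 (1.14 ± 0.41, SE) missed the threshold without IP replicate 1 (0.68, adjusted p = 0.32) and without input replicate 2 (0.84, adjusted p = 0.28). The Mir6236 libraries overlapped, at 1064 and 408 CPM in the inputs and 454 and 5348 CPM in the IPs, and the rise (edgeR log2 fold change 1.98, SE 0.52, adjusted p = 0.0027) rests on IP replicate 2. The estimate was negative and not called without IP replicate 2 (-0.97, adjusted p = 0.069).

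The other 15 falls, each with a mean under 1000 CPM, were Mir331, Mir1249, Mir3964, Mir5099, Mir3068, Mir210, Mir744, Mir1306, Mir574, Mir674, Mir671, Mir5107, Mir542, Mir6516 and Mir1949. Mir3964 (chr15:29713331-29713404, minus strand) fell from 884 and 1098 CPM to 138 and 112 CPM (edgeR log2 fold change -2.98, SE 0.44, adjusted p = 8.7e-07), and Mir331 (chr10:93963768-93963863, minus strand), within Vezt, from 148 and 120.3 CPM to 12.7 and 6.69 CPM (edgeR log2 fold change -3.72, SE 0.71, adjusted p = 4.3e-05). Mir210, the miRNA induced by hypoxia, had 45 and 64 input counts and 38 and 17 IP counts (edgeR log2 fold change -2.45, SE 0.53, adjusted p = 0.0003). Mir5099 (-2.70), Mir3068 (-2.52), Mir1249 (-3.54) and Mir574 (-1.42) were lower too, and these 7 features stayed called under each alternative that tested them. The calls of the other 8 changed with single libraries. Mir542 missed the threshold without IP replicate 2 (-2.40, adjusted p = 0.076) and without input replicate 2 (-2.18, adjusted p = 0.22), Mir6516 without IP replicate 1 (-2.69, adjusted p = 0.18) and without input replicate 1 (-3.19, adjusted p = 0.14), and Mir1949 without IP replicate 1 (-2.64, adjusted p = 0.18). Mir674 missed it without IP replicate 1 (-0.90, adjusted p = 0.12) and without input replicate 1 (-0.91, adjusted p = 0.16), Mir744 without input replicate 1 (-0.97, adjusted p = 0.12), and Mir1306 without input replicate 2 (-1.06, adjusted p = 0.059). Mir671 missed it without IP replicate 1 (-1.47, adjusted p = 0.16), without input replicate 1 (-1.69, adjusted p = 0.11) and without input replicate 2 (-1.88, adjusted p = 0.073). Mir5107 missed it without IP replicate 2 (-1.28, adjusted p = 0.15), without input replicate 1 (-1.38, adjusted p = 0.19) and without input replicate 2 (-1.80, adjusted p = 0.065).

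Of the 15 features with a resting count that overlap a snoRNA, scaRNA or tRNA gene, 10 were tested, of which 2 were lower, none higher and 8 not called, against 15.5% lower and 13.2% higher over all tested features. Their median log2 fold change was -1.75, and that of all tested features -0.05. Each of the 10 fitted values lay below 0, though most did not pass the test. Small nucleolar RNAs (snoRNAs) guide chemical modification of ribosomal RNA, and some are known to be cut into miRNA-sized pieces. The unnamed feature ENSMUSG00000105167.1 (chr15:80082847-80082954, minus strand) lies over Snord43 within the ribosomal protein gene Rpl3. It had 14170 and 20155 counts in the inputs, rank 6, and 2349 and 1496 in the IPs, rank 37, and fell 23.7-fold (edgeR log2 fold change -4.57, SE 0.28, adjusted p = 2.7e-17). Mir5121 (chr7:45126918-45126991, minus strand) lies over Snord33 within Rpl13a and had 516 and 501 input counts and 47 and 63 IP counts (edgeR log2 fold change -4.51, SE 0.44, adjusted p = 6.4e-11). All input libraries of both features lay far above the IPs.

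Among the features not called, Mir1843b over Scarna3a had 65 and 61 and 83 and 39 counts (edgeR log2 fold change -1.53, SE 0.60, adjusted p = 0.051), and Mir1291 over Snora34 had 16 input and 3 IP counts, a ratio of input over IP of 14.6 (exact 95% interval for counting error 4.17 to 78.0). Mir1291 passed without IP replicate 2 (-4.70, adjusted p = 0.046) and without input replicate 1 (-4.24, adjusted p = 0.041). ENSMUSG00000104599.1 over Snora81 passed without IP replicate 2 (-5.09, adjusted p = 0.0011) and without input replicate 2 (-2.63, adjusted p = 0.04), and ENSMUSG00000104863.1 over Snora74a without IP replicate 2 (-3.94, adjusted p = 8.3e-05). IP replicate 2 held more of both than IP replicate 1, 26 against 3 counts of the first and 92 against 16 of the second. ENSMUSG00000106355.1 over a tRNA gene had 9 input and 1 IP counts and passed without input replicate 2 (-5.21, adjusted p = 0.04). Mir1983 (-0.22), over another tRNA gene, Mir664 (-0.35), over Snora36b, and Mir1843a (-0.43), over Scarna3b, lay nearer to 0.

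The 2 lowest log2 fold changes of all called features belonged to Gm24148 and Mir677, which overlap no annotated small RNA gene in RefSeq. Gm24148 (chr1:86351981-86352127, minus strand), the gene of miR-3535 within the nucleolin gene Ncl, had 1927 and 2096 counts in the inputs and 128 and 173 in the IPs, a fall of 32.6-fold (edgeR log2 fold change -5.03, SE 0.39, adjusted p = 4.9e-14). Mir677 (chr10:128085286-128085363, plus strand), within the ATP synthase gene Atp5b, had 25 and 35 and 3 and 1 counts (edgeR log2 fold change -5.24, SE 0.85, adjusted p = 4.7e-06). Their RefSeq hairpins on GRCm38.p6, printed because they hold letters of snoRNA boxes, have the first UGAUGA and each later CUGA in capitals. Box C/D snoRNAs carry UGAUGA near their 5′ end and CUGA near their 3′ end. The marking set no rule for position. In Gm24148 the marked UGAUGA lies well inside the annotated hairpin and directly before a CUGA, and further CUGA follow. Whether marked boxes of either hairpin lie at the ends of a shorter RNA was not tested.
Gm24148 hairpin: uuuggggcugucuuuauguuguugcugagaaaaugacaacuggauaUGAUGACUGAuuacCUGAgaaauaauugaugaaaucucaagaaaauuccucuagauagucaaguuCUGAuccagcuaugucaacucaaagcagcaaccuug
Mir677 hairpin: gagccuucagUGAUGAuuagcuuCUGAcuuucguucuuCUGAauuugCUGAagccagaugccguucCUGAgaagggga
A search on the hairpin strand found UGAUGA followed anywhere by CUGA in 5 of 1005 RefSeq hairpins (0.498%) and in 2 of the 190 tested features with a hairpin entry, which are these. UGAUGA alone occurred in 27 hairpins (2.69%), and on the other strand in 11 (1.09%). Of the 6 tested features with UGAUGA, Gm24148, Mir677 and Mir5121 were lower, Mir144 (-0.03) and Mir130b (-0.67) were not called, and Mir200b was higher. Over all tested features 15.5% were lower and 13.2% higher. The letters are a description of the sequence and do not show that a snoRNA is made there.

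The number in a miRNA gene's name follows the order of its naming, and late names more often rest on sequencing alone. Of the 57 tested features with a Mir number of 1000 or above, 1 was higher, Mir6236, and 9 were lower, with a median of -0.46 and a median SE of 1.05. Of the 155 with a lower number or a let-7 name, 28 were higher and 23 lower, with a median of 0.08 and a median SE of 0.38. Abundance differs between the classes as well. Among features with a mean of at least 100 CPM, 13 late-numbered ones had 1 higher and 6 lower, and 101 others had 25 higher and 16 lower.

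Markers of other cell types were checked beside these results, since the label gives B cells. Mir223 (chrX:96242817-96242926, plus strand), typical of myeloid cells, took 1.153% and 2.86% of the inputs and 1.45% and 2.94% of the IPs. It was higher in replicate 2 of both and was not called (edgeR log2 fold change 0.35, SE 0.30, adjusted p = 0.4), except without IP replicate 1 (0.62, adjusted p = 0.041) and without input replicate 2 (1.09, adjusted p = 0.024). Mir144 of the erythroid list had 41 and 91 input and 115 and 185 IP counts (edgeR log2 fold change -0.03, SE 0.55, adjusted p = 0.97), again with the larger share in replicate 2. Mir126a of the endothelial list, which lies opposite Mir126b, was at -0.85 (edgeR adjusted p = 0.091) and lower without IP replicate 2 (-1.69, adjusted p = 0.00062). Mir122, the liver miRNA, had 3 and 4 input and 47 and 28 IP counts and was not called (1.97 ± 0.94, SE). The 6 muscle features had no count, 1 of 11 neural features was tested, Mir128-1 (-0.14), and no stromal feature was tested, at 0.00641% or less of each library. Mir150, high in mature lymphocytes, had the largest mean share in inputs and IPs. The part of these cells in the results above was not tested.

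The difference of IP over input between resting and proliferating cells was tested within the same fit, over all 8 libraries. It was called for 38 of 219 features, 17.4%. In proliferating cells 29 features were higher and 30 lower in the IP, 13.2% and 13.7% of those tested, from separate input libraries. Of the 29 features higher in resting cells, 13 were also higher in proliferating cells (44.8% of each list), and 10 had a called difference, each further up in resting cells. Of the 34 lower features, 11 were also lower in proliferating cells (32.4% of the resting and 36.7% of the proliferating list), and 14 had a called difference, 13 of them further down in resting cells and 1, Mir5099, further down in proliferating cells. The calls opposed each other for Mirlet7b, Mirlet7g and Mir17. Mirlet7b was at 1.88 in resting and -2.05 in proliferating cells, a difference of 3.92 (SE 0.41, edgeR adjusted p = 1.3e-09). Mir26b was at 1.81 and 0.16 (difference 1.65, SE 0.32, edgeR adjusted p = 0.00028), and Mir200b at 2.68 and -0.57 (difference 3.25, SE 0.77, edgeR adjusted p = 0.0025). Mir17 was at -0.77 and 1.13 (difference -1.90, SE 0.41, edgeR adjusted p = 0.0012). Cell state and deposited table coincide, so effects of the table and of the state cannot be told apart. The count of called differences fell to 24 without resting input replicate 1.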

How the data were processed

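Small RNA of AGO2 IPs and inputs was sequenced single-end, per the labels' protocols. The submitters' processing notes name STAR 2.7.9a, SAMtools 1.15 and the mm10 build. Each deposited table lists unnormalized counts of miRNA features from deduplicated alignments, per the file headers. How reads were counted and deduplicated, with what strand setting and with what rule for multi-mapping reads, is not given in the sources used here. A feature covers both arms of its hairpin, so the arms are not separated. Reads of identical copies (23 tested features share a mature sequence with another gene) or of the 67 features that overlap another feature cannot be assigned with certainty.

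Exact coordinates matched 1179 of the 2202 features to a RefSeq gene of GRCm38.p6, the assembly of mm10, and its symbol is used. The 31 unnamed features with a resting count held 1.20% of the resting counts. Host genes and small RNA genes were found by overlapping spans, without regard to exons or introns. Groups and replicate numbers came from titles.

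Low features were removed with filterByExpr (minimum count 10). A quasi-likelihood model with 4 groups was fitted to all 8 libraries in edgeR 4.0.16 (R 4.3.3; 4 residual and 36.6 prior degrees of freedom), with TMM factors, two-sided tests and Benjamini-Hochberg adjustment over 219 features. SE was taken as |log2 fold change| / sqrt(F). Most of the spread estimate is thus shared over features, so very small p-values owe little to a single feature's libraries. Percent shares use library totals without TMM. Features with 1 to 3 counts in a group are given as a ratio scaled by effective library size with an exact 95% counting interval, which covers counting error only. On simulated counts with known answers for the same comparison, 47 of 60 4-fold changes (78.3%) were recovered with 2 false calls over 219 features.

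The members, the lists of miRNAs and markers and the rule for named features were chosen with earlier results of these data known. The rule names the 12 largest rises and 12 largest falls with libraries apart and a mean of at least 10 CPM, the 10 most abundant features of inputs and IPs, at most 4 abundant members per list, all let-7 and miR-200 features, the extremes of each polycistron and seed group, and features over other small RNA genes. The remaining 11 called features were named after their values were seen. Alternatives were other scalings (library totals, upper-quartile and relative log expression factors), DESeq2 1.42.0, limma-voom (limma 3.58.1), no filter and a minimum count of 50, the 4 resting libraries alone, removal of features over other small RNA genes, the replicate number as a block, and leaving out each resting library. Leaving 1 out keeps 1 library in its group, which is assumed to vary like the others.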

Additional observations from a re-analysis of the deposited data

Results flagged for a closer look

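For 33 named features the log2 fold change of IP over input differed between resting and proliferating cells in the test of the difference itself (edgeR, adjusted p under 0.05, with adjusted p from 1.3e-09 to 0.041). Values are the resting minus the proliferating log2 fold change. The let-7 features among these 33 were all further up in resting cells. Mir98, Mirlet7a-2, Mirlet7c-1 and Mirlet7c-2 had no called difference. Further up were Mirlet7b (3.92, from 1.88 in resting and -2.05 in proliferating cells) and Mirlet7a-1 (3.27, from 0.969 in resting and -2.3 in proliferating cells). Mirlet7i (2.27, from 0.61 in resting and -1.66 in proliferating cells) and Mirlet7f-2 (2.18, from 1.69 in resting and -0.489 in proliferating cells) followed. Then came Mirlet7g (1.76, from 0.906 in resting and -0.852 in proliferating cells) and Mirlet7d (1.18, from 1.07 in resting and -0.109 in proliferating cells). The same held for Mir26a-2 (2.61, from 1.84 in resting and -0.771 in proliferating cells) and Mir26b (1.65, from 1.81 in resting and 0.159 in proliferating cells) of miR-26, for Mir200b (3.25, from 2.68 in resting and -0.569 in proliferating cells) and Mir200c (1.74, from 2.08 in resting and 0.337 in proliferating cells) of miR-200, and for Mir32 (1.81, from 2.06 in resting and 0.246 in proliferating cells) and Mir223 (1.4, from 0.348 in resting and -1.06 in proliferating cells). Mir122 had 3 and 4 counts in the resting inputs and differed by 4.4. Mir6236 (2.43, from 1.98 in resting and -0.446 in proliferating cells) rests on resting IP replicate 2.

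Some members of 4 clusters were further down in resting cells. They were Mir17 (-1.9, from -0.772 in resting and 1.13 in proliferating cells) and Mir20b (-1.21, from 0.253 in resting and 1.46 in proliferating cells) of the miR-17 cluster on chromosome 14 and its paralog on the X chromosome, and Mir23a (-1.77, from 0.0504 in resting and 1.82 in proliferating cells) and Mir27a (-1.59, from -2.28 in resting and -0.697 in proliferating cells) of chromosome 8 and  and Mir23b (-1.69, from -0.0761 in resting and 1.61 in proliferating cells) of chromosome 13. Features over snoRNA genes, and Gm24148, fell in both states and further in resting cells: ENSMUSG00000105167.1 (-1.77, from -4.57 in resting and -2.8 in proliferating cells), Gm24148 (-1.79, from -5.03 in resting and -3.24 in proliferating cells) and Mir5121 (-1.63, from -4.51 in resting and -2.88 in proliferating cells). Mir5099 fell in both and further in proliferating cells, with a difference of 1.96. Other features further down in resting cells were Mir29c (-1.18, from -2.07 in resting and -0.887 in proliferating cells), Mir125a (-2.4, from -1.82 in resting and 0.573 in proliferating cells), Mir126a (-2.34, from -0.853 in resting and 1.48 in proliferating cells) and Mir132 (-2.74, from -2.01 in resting and 0.732 in proliferating cells), then Mir301b (-1.89, from -1.63 in resting and 0.26 in proliferating cells), Mir674 (-1.75, from -1.08 in resting and 0.676 in proliferating cells), Mir1249 (-2.73, from -3.54 in resting and -0.814 in proliferating cells), Mir3964 (-3.24, from -2.98 in resting and 0.262 in proliferating cells) and Mir1983 (-2.32, from -0.223 in resting and 2.1 in proliferating cells). The fitted difference of Mir542 (-7.35) depends on the prior count, since it had no count in the proliferating inputs and 4 in each proliferating IP.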

How the results depend on the processing

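The count of 63 calls lay between 55 and 71 under the other scalings, tools and filters (71 with limma-voom, 59 with DESeq2, 58 with no filter, 56 with a minimum count of 50) and between 49 and 71 on leaving out a library. Leave-one-out counts ran from 24 to 27 higher and from 25 to 44 lower. Of the 63 features, 36 (19 higher, 17 lower) kept their call in each of the 15 alternatives that tested them, 27 lost it in at least 1, and none was called in the other direction. The estimate for Mir6236 ran from -0.97 without resting IP replicate 2 to 2.83 without resting input replicate 1. The count of 38 called differences between cell states was 22 with upper-quartile factors, 25 with relative log expression factors and 24 to 49 on leaving out a resting library. The replicate number as a block over all 8 libraries gave 62 calls (29 higher, 33 lower) and 40 differences, and as a block within each state 57 calls (28 higher, 29 lower) and 32 differences. Deviations of same-numbered resting input and IP from their group means correlated at r = -0.07 across features. That value cannot settle whether the numbers pair the libraries, since low counts add noise to it. Mir223 and Mir144 had the larger share in replicate 2 of both input and IP. The main fit did not pair the libraries. Lists of 2 to 6 members changed sign with the scaling where their median lay near 0: miR-15 and miR-16 (-0.15 to 0.0045 with upper-quartile factors), miR-23 and miR-27 (-0.01 to 0.12) and miR-28 with miR-151 (-0.05 to 0.09). Depth limits the features below 10 CPM, none of which was called, and the input, at 358764 and 386598 counts, limits the precision of each low ratio.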
